A study of Danio rerio with 6 samples.

Results

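The miR-133 family of the zebrafish heart was read by 5 of the 218 zebrafish microRNA (miRNA) probes of an array: dre-miR-133a, dre-miR-133b and dre-miR-133c, which are the guide strands, and dre-miR-133a* and dre-miR-133b*, the opposite (star) strands of their hairpins. The prefix for the species is left out from here on. They were taken by probe name alone, and 4 of the 5 were bright enough to be tested. Small RNA was compared between 3 samples of regenerating hearts, collected 6 hours after surgical amputation, and 3 samples of uninjured hearts, labelled 0 hours. Both groups were adult fish of the Ekkwill strain, with no transgene or mutation named, and the series describes each sample as a pool of hearts in biological triplicate; how many hearts made a pool is not stated there. In each group 2 samples carried the dye Cy3 and 1 carried Cy5.

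A miRNA is cut as a duplex from a hairpin precursor; the guide strand is loaded into an Argonaute protein and pairs with messenger RNAs through its seed, and the star strand is mostly discarded. miR-133 is made in heart and skeletal muscle, where its genes lie beside those of miR-1 or miR-206 and can be transcribed with them. In mammals miR-133 represses serum response factor and cell cycle regulators in muscle cells, and in published work on zebrafish it restrains the division of heart muscle cells during regeneration.

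The target sequences of the 5 probes, as the deposited spot files list them, show that the guide strands differ by few bases. How well the probes tell them apart was not tested. They are given 5′ to 3′ with the seed, bases 2 to 8, in capitals.
miR-133a: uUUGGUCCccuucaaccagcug
miR-133b: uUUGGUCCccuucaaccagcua
miR-133c: uUUGGUCCcuuucaaccagcua
miR-133a*: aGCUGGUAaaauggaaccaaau
miR-133b*: gCUGGUCAaauggaaccaaguc
The 3 guide strands have the same seed, and 0 of the other probes share it. Counted from the 5′ end, miR-133b differs from miR-133a by G22A, the last base, and miR-133c differs from miR-133b by C10U, just behind the seed. miR-133c thus differs from miR-133a by both. The star strands have seeds of their own and stand at an edit distance of 4 from each other. No probe outside the family came closer than an edit distance of 9 to any member. In the RefSeq annotation of the GRCz12tu assembly the gene next to mir133a-1 is mir1-2, the gene next to mir133b is mir206-1 and the gene next to mir133c is mir206-2. For mir133a-2 the nearest miRNA gene is mir1-1, which is not adjacent: the genes on either side are slco4a1 and LOC137489084. A probe for miR-133a cannot separate the products of mir133a-1 and mir133a-2.

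Every probe had 12 spots on each array. Spot intensities are given here after subtraction of the local background, on a linear scale, and comparisons between groups use log2 values after normexp correction and quantile normalization over all miRNA probes, which shows changes relative to the other probes of the array. Of the 218 probes, 138 were detected in at least 3 of the 6 samples and were tested. The brightness of different probes is not a measure of their relative amounts. The arrays differed in background: the median empty spot read 54.1 to 560 in regenerating samples and 43.0 to 507 in uninjured samples, and the number of detected probes ran from 110 to 217 in regenerating samples and from 132 to 144 in uninjured samples. The residual pattern of the empty spots was most alike in regenerating replicate 1 (Cy3) and uninjured replicate 2 (Cy5), with a Spearman rho of 0.46 over the empty spots, and 0.23 or less in every other pair, so these 2 samples may share an array. The heart muscle markers miR-1 and miR-499 together read 45845 to 72967 in regenerating samples and 81847 to 84391 in uninjured samples, before any scaling. Other marker lists were also dimmer on some regenerating arrays: the endothelial probes read 26596 to 38726 in regenerating samples and 38420 to 41223 in uninjured samples, and the leukocyte probes 5345 to 10336 in regenerating samples and 10071 to 10562 in uninjured samples. After normalization miR-1 and miR-499 had log2 changes of -0.047 and -0.074. The tested leukocyte probes miR-150, miR-181a and miR-223 then had log2 changes of -0.038, 0.40 and 1.16, and none of them passed the test. In tissue samples like these, fewer cells of a type and less RNA per cell cannot be told apart.

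miR-133a was bright on every array and, relative to the other miRNAs, read slightly higher after amputation, without passing the test. Its spots averaged 17284, 12610 and 8788 in regenerating replicates 1, 2 and 3, and 11528, 13873 and 12716 in uninjured replicates 1, 2 and 3. Before normalization the groups overlapped: the brightest and the dimmest sample were both regenerating ones. After quantile normalization the log2 values were 13.84, 13.84 and 13.64 in regenerating replicates 1 to 3, and 13.58, 13.44 and 13.44 in uninjured replicates 1 to 3. All 3 regenerating samples then lay above all 3 uninjured samples, an order that 9.42% of all tested probes had. Equal values mean that the probe held the same rank on both arrays, since quantile normalization gives every array the same set of values.

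The group means of miR-133a were 13.77 ± 0.12 in regenerating hearts and 13.49 ± 0.081 in uninjured hearts (SD, n = 3 each). The log2 change, regenerating minus uninjured, was 0.28 (SE 0.12, 95% interval -0.020 to 0.59), a ratio of 1.22, with a limma adjusted p of 0.294. Within the dyes it was 0.33 in Cy3 samples and 0.19 in Cy5 samples. Among all tested probes 5, or 3.62%, passed the threshold of 0.05 (1.45% higher and 2.17% lower); of the 4 tested miR-133 probes 0 did, and 1 (miR-133c) had an unadjusted p below 0.05, against 12 higher and 16 lower probes (8.7% and 11.6%) among all 138.

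The sign of this small difference depended on how the arrays were made comparable. Across all tested probes the change went with the share of G and C bases in the target (Pearson r = 0.48 over 138 probes of the same 6 arrays), and the 54.5% GC of miR-133a lies above the median of 45.5%. With a correction for this trend its log2 change was -0.032, and with scaling to the calibration spots it was -0.16, where the median change of all probes was -0.43. The amounts of the added calibration sequences are not given, so scaling to their spots assumes equal amounts in every sample. In the authors' deposited table, miR-133a read 12891, 14229 and 11128 in regenerating replicates 1 to 3 and 9363, 9320 and 9176 in uninjured replicates 1 to 3. There too all regenerating samples lay above the uninjured ones. The ratio of the means of those authors' processed intensities was 1.37, against 1.01 for the background-subtracted intensities before any scaling.

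miR-133b followed miR-133a closely, apart from 1 failed spot. Its spots averaged 16182, 11288 and 7396 in regenerating replicates 1 to 3, and 10621, 12922 and 11602 in uninjured replicates 1 to 3. On regenerating replicate 3, 1 of the 12 spots read 8.70, while the other 11 read between 7363 and 8901. Across all miRNA probes and arrays 4 of 15696 spots read below 10% of their probe's median in this way, for probes at over 10 times the detection limit. The normalized log2 values were 13.71, 13.71 and 13.11 in regenerating replicates 1 to 3, against 13.29, 13.29 and 13.35 in uninjured replicates 1 to 3, and the groups overlapped through regenerating replicate 3 alone.

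**Figure D1:**
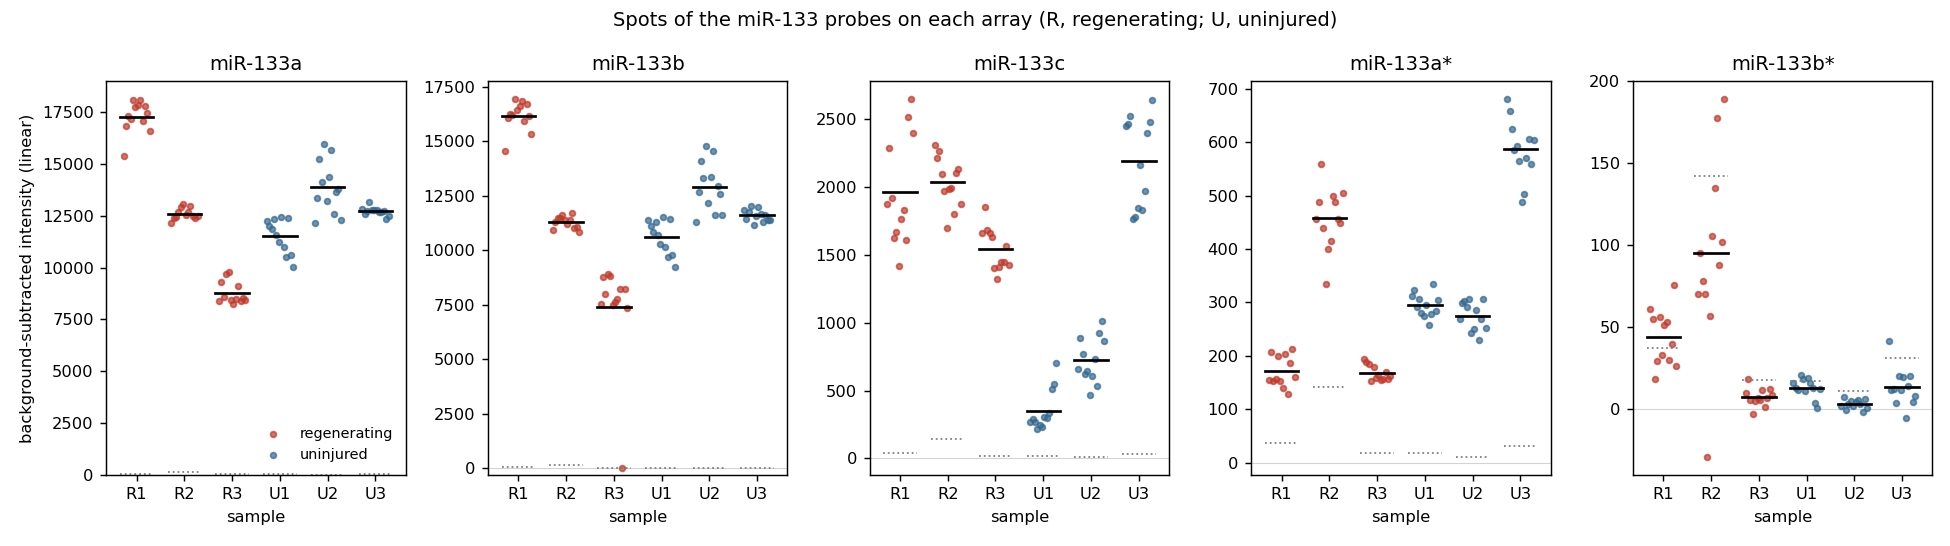
Background-subtracted intensity (linear scale, each panel with its own axis) of the 12 spots of each miR-133 probe in regenerating (R1 to R3) and uninjured (U1 to U3) samples; black lines are the means and dotted gray lines the detection limits. The single miR-133b spot near 0 on R3 and the wide gap between U1 and U3 for miR-133c stand out. The mean of miR-133b* is above its detection limit on R1 only.

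The means of miR-133b were 13.51 ± 0.35 in regenerating hearts and 13.31 ± 0.033 in uninjured hearts (SD, n = 3 each). The difference was 0.20 in log2 units, with an SE of 0.16 and a limma adjusted p of 0.570. Within dyes the change was 0.39 in Cy3 samples and -0.19 in Cy5 samples, where the failed spot lies. With failed spots left out, a choice made after seeing the data, regenerating replicate 3 stood at 13.58 and the groups no longer overlapped. With all spots kept, 9.42% of all tested probes had the regenerating group entirely above the uninjured group. The share without failed spots was not counted. Without failed spots the change of miR-133b was 0.36 (SE 0.11, limma adjusted p = 0.164). With the median of the 12 spots it was 0.30 (SE 0.082, limma adjusted p = 0.139). In the authors' deposited table miR-133b read 11918, 12869 and 10343 in regenerating replicates 1 to 3, against 8515, 8640 and 8302 in uninjured replicates 1 to 3. The direction turned with scaling to calibration spots, at -0.35, where the median change of all tested probes was -0.43. The change was 0.035 after GC correction.

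The intensity of miR-133a stood in a nearly fixed ratio to that of miR-133b: 1.07, 1.12 and 1.19 in regenerating replicates 1 to 3, and 1.09, 1.07 and 1.10 in uninjured replicates 1 to 3. The largest value, that of regenerating replicate 3, includes the failed spot. The targets differ by the last base only, and how much of each probe's signal comes from the other miRNA was not tested.

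**Figure D2:**
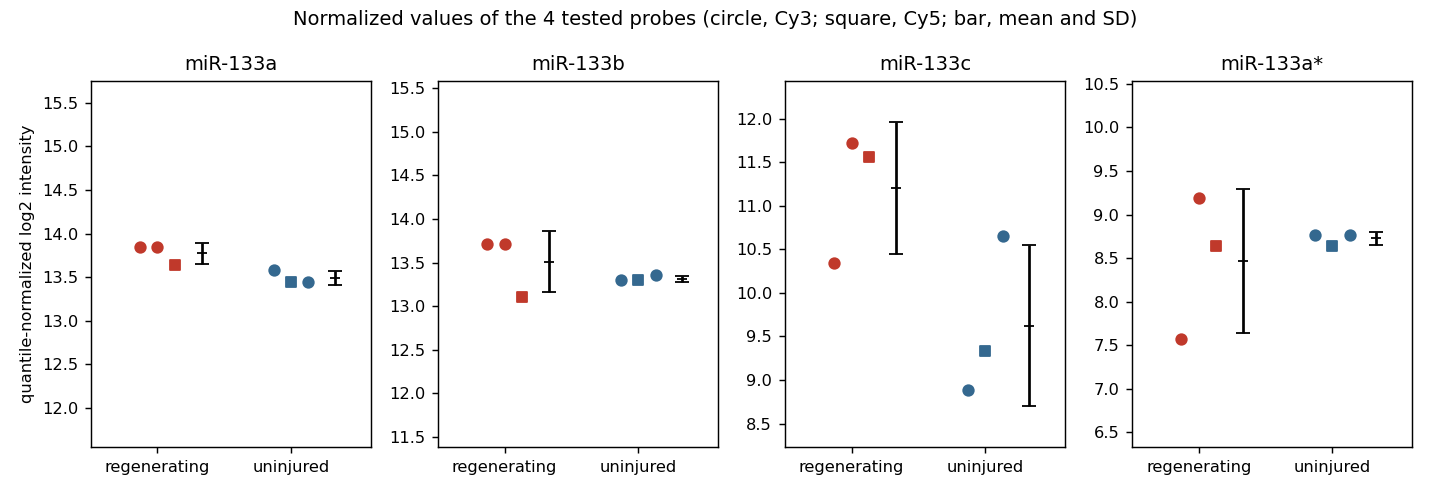
Quantile-normalized log2 intensity of the 4 tested probes in the regenerating and uninjured samples (circles Cy3, squares Cy5, replicates 1 to 3 from left to right within a group; bars, mean and SD; each panel spans the same number of log2 units). miR-133a separates the groups narrowly, miR-133b does so but for 1 regenerating sample, and miR-133c and miR-133a* overlap.

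miR-133c had the largest log2 change of the family, and its uninjured samples lay far apart. Its spots averaged 1965, 2038 and 1544 in regenerating replicates 1 to 3, and 351, 727 and 2194 in uninjured replicates 1 to 3. Before normalization the regenerating samples lay close together, within 1.32-fold, while the uninjured samples spread over 6.24-fold, and uninjured replicate 3 was brighter than every regenerating sample. After it the SDs were nearer each other, at 0.75 log2 units in regenerating and 0.92 in uninjured samples. For miR-133a the spread before normalization was 1.97-fold in regenerating samples and 1.20-fold in uninjured samples, and for miR-133b it was 2.19-fold in regenerating samples and 1.22-fold in uninjured samples. In normalized log2 values miR-133c stood at 10.34, 11.72 and 11.56 in regenerating replicates 1 to 3, against 8.89, 9.33 and 10.66 in uninjured replicates 1 to 3, so regenerating replicate 1 lay below uninjured replicate 3.

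The means of miR-133c were 11.21 ± 0.75 in regenerating hearts and 9.62 ± 0.92 in uninjured hearts (SD, n = 3 each). The log2 change was 1.58 (SE 0.59, 95% interval 0.12 to 3.04), a ratio of 2.99, with an unadjusted p of 0.0383 and a limma adjusted p of 0.220. It was 1.26 in Cy3 samples and 2.23 in Cy5 samples. It was above 0 in all 25 alternatives run, from 1.00 to 2.22, and passed the threshold in 0 of them. Those that altered only the filter, dye term, blocks or eBayes trend left the estimate as it was, so its sign could not turn there. The smallest limma adjusted p was 0.0501, without regenerating replicate 1. Without uninjured replicate 3 the change was 2.22 (limma adjusted p = 0.0899), and without uninjured replicate 1 it was 1.13. GC correction left it at 1.57. The GC share of miR-133c, 45.5%, equals the median of the tested probes, so that correction could hardly move it. In the authors' deposited table miR-133c read 1191, 2317 and 2220 in regenerating replicates 1 to 3, against 228, 465 and 1196 in uninjured replicates 1 to 3, where uninjured replicate 3 and regenerating replicate 1 were level.

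The spots of miR-133c were also less even than those of miR-133a on every array. The 12 spots lie in 4 blocks of 3 down the array, and on uninjured replicate 1 the block means were 276, 231, 311 and 588. On uninjured replicate 3 they were 2481, 1797, 1989 and 2506, and on regenerating replicate 1 they were 2028, 1574, 1736 and 2524. The coefficient of variation over 12 spots was 43.3% on uninjured replicate 1, against 7.21% for miR-133a on the same array. The gap between uninjured replicates 1 and 3 was larger than the range of the blocks within either. All 12 spots of miR-133c were above the detection limit on every array.

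Within an array, the background-subtracted signal of miR-133c was 11.4%, 16.2% and 17.6% of that of miR-133a in regenerating replicates 1 to 3, and 3.05%, 5.24% and 17.3% in uninjured replicates 1 to 3. These are ratios of brightness, not of amounts, and they show that miR-133c and miR-133a varied by unequal amounts. Over the 6 samples their normalized values correlated at r = 0.48, against 0.74 for miR-133a and miR-133b. The log2 difference, miR-133c minus miR-133a, averaged -2.57 ± 0.81 in regenerating samples and -3.86 ± 0.98 in uninjured samples (SD, n = 3 each), 1.30 higher in regenerating samples, with a two-sided exact permutation p of 0.2. With 3 samples against 3 this test cannot go below 0.1. It was made for 6 pairs of probes, picked with the values known, and the p adjusted over them was 0.4.

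The star strand miR-133a* was dim but above background on every array. Its spots averaged 171, 457 and 169 in regenerating replicates 1 to 3, and 295, 275 and 586 in uninjured replicates 1 to 3, which is 3.22 to 9.78 times the detection limit in regenerating samples and 17.3 to 25.6 times in uninjured samples. Normalized values were 7.57, 9.19 and 8.64 in regenerating replicates 1 to 3, against 8.77, 8.64 and 8.77 in uninjured replicates 1 to 3. The uninjured samples lay inside the range of the regenerating ones, of which replicate 1 was the lowest of all samples and replicate 2 the highest. The means were 8.47 ± 0.82 in regenerating hearts and 8.73 ± 0.077 in uninjured hearts (SD, n = 3 each). The difference was -0.26 in log2 units, with an SE of 0.42 and a limma adjusted p of 0.780. Without regenerating replicate 1 it was 0.23, and without regenerating replicate 2 it was -0.72.

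The signal of miR-133a* was 0.989%, 3.63% and 1.92% of that of miR-133a in regenerating replicates 1 to 3, and 2.56%, 1.98% and 4.61% in uninjured replicates 1 to 3. The arm difference, miR-133a minus miR-133a* in normalized log2 units, was 6.27, 4.65 and 4.998 in regenerating replicates 1 to 3, against 4.81, 4.81 and 4.67 in uninjured replicates 1 to 3. Regenerating replicate 1 stood above the rest and replicate 2 just below the uninjured samples, so the groups overlapped. The mean difference was 5.305 ± 0.85 in regenerating samples and 4.76 ± 0.079 in uninjured samples (SD, n = 3 each), a change of 0.54 with a two-sided exact permutation p of 0.4. Without regenerating replicate 1 the change was 0.080, and with GC correction it was -0.074.

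miR-133b*, the star strand of miR-133b, was not well above background. Its spots averaged 43.9, 94.8 and 7.09 in regenerating replicates 1 to 3, and 12.6, 2.79 and 13.2 in uninjured replicates 1 to 3. It exceeded the limit only on regenerating replicate 1, at 1.18 times the limit, on the array where 217 of the 218 probes exceeded theirs. In the authors' deposited table it read 8.55 to 14.8 in regenerating samples and 12.8 to 14.5 in uninjured samples. No fold change or arm ratio is given for it.

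**Figure D3:**
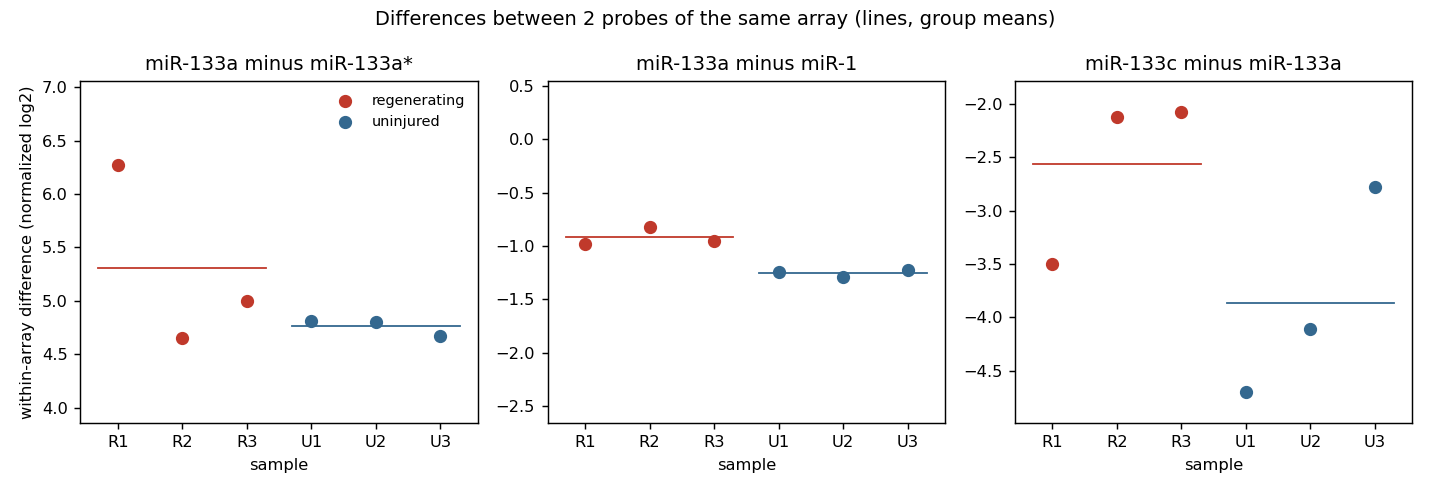
Difference of normalized log2 intensity between 2 probes of the same array for each regenerating (R1 to R3) and uninjured (U1 to U3) sample; lines are group means, and the panels span equal ranges. The difference miR-133a minus miR-1 separates the groups, at -0.92 in regenerating and -1.25 in uninjured samples on average. miR-133a alone also separates them, and the other pairs overlap.

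The other miRNAs of muscle on the array were miR-1, miR-206 and miR-499. miR-1, which represses growth and division of muscle cells, averaged 14.69 ± 0.12 in regenerating hearts and 14.74 ± 0.082 in uninjured hearts (SD, n = 3 each), a difference of -0.047 (SE 0.13). miR-499, encoded in a myosin heavy chain gene, had a log2 change of -0.074 (SE 0.12). Neither miR-1 nor miR-499 passed in limma (adjusted p = 0.845 and 0.785). miR-499 was the brightest probe on all 3 uninjured arrays and on regenerating replicates 1 and 2. Quantile normalization gives it 1 value there, 15.38. Only regenerating replicate 3, at 15.15, differed, so with this normalization the change of miR-499 could not be above 0. It was -0.32 with cyclic loess and -0.40 in the authors' processed values, against -0.068 and -0.099 for miR-1. The direction turned with GC correction, at 0.56 for miR-1 and 0.38 for miR-499. With median scaling they stood at 0.26 and 0.10, where the median change of all tested probes was 0.36. With scaling to calibration spots they stood at -0.53 and -0.69, where that median was -0.43. Relative to the median of all tested probes they stood at -0.099 and -0.26 in both scalings. This equality is by construction, since each scaling shifts all probes of an array by the same amount.

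Within the arrays miR-133a and miR-1 differed by unequal amounts in the groups. The log2 difference miR-133a minus miR-1 was -0.99, -0.82 and -0.95 in regenerating replicates 1 to 3, against -1.25, -1.29 and -1.22 in uninjured replicates 1 to 3. Every regenerating sample lay above every uninjured one, and the mean difference was 0.33 higher (two-sided exact permutation p = 0.1, the smallest possible with 3 against 3; 0.4 adjusted over the 6 pairs). With 1 sample left out it stayed between 0.29 and 0.37, and it was 0.55 in the authors' processed values. It turned to -0.59 with GC correction, in which miR-1 stood at 0.56 and miR-133a at -0.032. Without that correction miR-133a alone separated the groups, with a log2 change of 0.28, against -0.047 for miR-1. The separation by the difference is thus not independent of miR-133a.

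miR-206, a miRNA of skeletal muscle whose genes neighbour those of miR-133b and miR-133c, read 2702, 458 and 146 in regenerating replicates 1 to 3, and 38.5, 29.6 and 27.6 in uninjured replicates 1 to 3. The 3 regenerating values were thus all above the 3 uninjured values, and uninjured replicate 3 was below the detection limit. After normalization the regenerating values of miR-206 were also all above the uninjured ones, an order that 9.42% of all tested probes had. In the uninjured samples it stood at 0.896 to 2.76 times the detection limit, so the size of its change depends on how the background is handled. The log2 change was 2.47 (SE 0.63, limma adjusted p = 0.115), and it ran from 1.66 with an offset of 200 to 4.02 with plain background subtraction. It passed in 6 of 24 alternatives, among them scaling by the 75th percentile (limma adjusted p = 0.00276), and its limma adjusted p ran from 9.1e-09 to 0.371 over them. The lowest came with scaling to calibration spots. There miR-206 had the same SE, 0.41, as miR-1, miR-499 and the tested miR-133 probes, so the p did not use its own spread.

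miR-206 and miR-133c, though a gene of each neighbours the other, ordered the regenerating samples differently. In normalized values miR-206 was highest in regenerating replicate 1, where miR-133c was the lowest of the regenerating samples; in background-subtracted values miR-133c was lowest in regenerating replicate 3. Their normalized values correlated at r = 0.38 over the 6 samples, against r = 0.89 for miR-206 and miR-133a and r = 0.69 for miR-206 and miR-133b. miR-206 and miR-133a each separated the groups, so their r includes the difference between groups. In regenerating replicates 1 and 2 miR-133a held equal values, 13.84, where miR-206 stood at 11.03 and 9.02. The log2 difference miR-133c minus miR-206 averaged 1.74 ± 2.11 in regenerating samples and 2.62 ± 1.13 in uninjured samples (SD, n = 3 each; two-sided exact permutation p = 0.7), and the change of -0.89 became -2.29 with plain background subtraction. miR-206 was the only skeletal muscle marker listed, at 146 to 2702 in regenerating samples and 27.6 to 38.5 in uninjured samples, and its part in the values of the miR-133 probes was not tested.

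**Figure D4:**
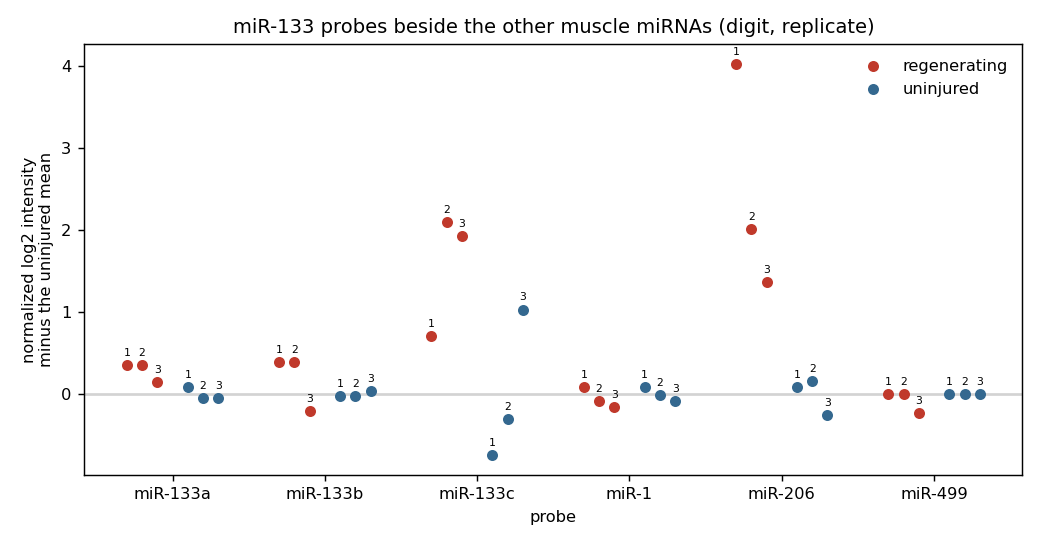
Normalized log2 intensity minus the mean of the uninjured samples for miR-133a, miR-133b, miR-133c, miR-1, miR-206 and miR-499; each point is a sample, regenerating left of uninjured, with its replicate number. miR-206 and miR-133c show the widest spread, with different orders of the replicates, while miR-1 and miR-499 lie near 0 in both groups with this normalization. Their changes turn above 0 with GC correction and with median scaling, which puts the median change of all tested probes at 0.36. With scaling to calibration spots miR-1 stands at -0.53 and miR-499 at -0.69, where that median is -0.43. miR-499 stands at -0.32 with cyclic loess and at -0.40 in the authors' processed values.

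The probes outside the family whose pattern over the 6 samples was most like that of miR-133a were miR-735 (r = 0.97), miR-145 (r = 0.94) and miR-210* (r = 0.94). miR-145 is a miRNA of smooth muscle, as is miR-143, which had a log2 change of -0.19 (SE 0.15) with overlapping groups. For miR-133b they were miR-210* (r = 0.88), miR-192 (r = 0.79) and miR-735 (r = 0.75). For miR-133c they were miR-181b (r = 0.97), miR-18c (r = 0.96) and miR-181c (r = 0.96), and 0 of these 3 were among the likest of miR-133a or miR-133b. For miR-133a* they were miR-130a (r = 0.91), miR-30e (r = 0.89) and miR-20b (r = 0.88). These are descriptions over 6 samples that were normalized together, picked as the highest among all tested probes. miR-18c and miR-192 were each detected in only 2 regenerating samples and 1 uninjured sample, so their values lay near background.

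miR-735 and miR-145 had log2 changes of 0.75 (SE 0.20) and 0.44 (SE 0.15), and in both the groups did not overlap. Neither passed in limma (adjusted p = 0.122 and 0.181). Both were picked for likeness to miR-133a over the same 6 samples, and miR-133a itself separated the groups. The separation and sign of their changes are thus not independent of miR-133a. Of all tested probes, 9.42% had the regenerating group entirely above the uninjured group. miR-181b and miR-181c, picked in the same way for likeness to miR-133c, had log2 changes of 0.65 (SE 0.29) and 0.62 (SE 0.28). Their groups overlapped (limma adjusted p = 0.310 for each).

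Of the 4 tested members 3 had a log2 change above 0, where 42% of all tested probes did, and their median was 0.24, against -0.052 over all tested probes. The guide strands have near-identical targets, so their probes may share signal, which was not tested, and they are not counted here as 3 separate measurements. Their normalized values correlated at r = 0.74 (miR-133a and miR-133b), 0.48 (miR-133a and miR-133c) and 0.22 (miR-133b and miR-133c). Over the 25 alternatives the change was above 0 in 23 for miR-133a, 24 for miR-133b, 25 for miR-133c and 4 for miR-133a*, and none of the 4 probes passed the threshold in any of them. Alternatives that altered only the filter, dye term, blocks or eBayes trend left these estimates as they were, so their signs could not turn there.

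**Figure D5:**
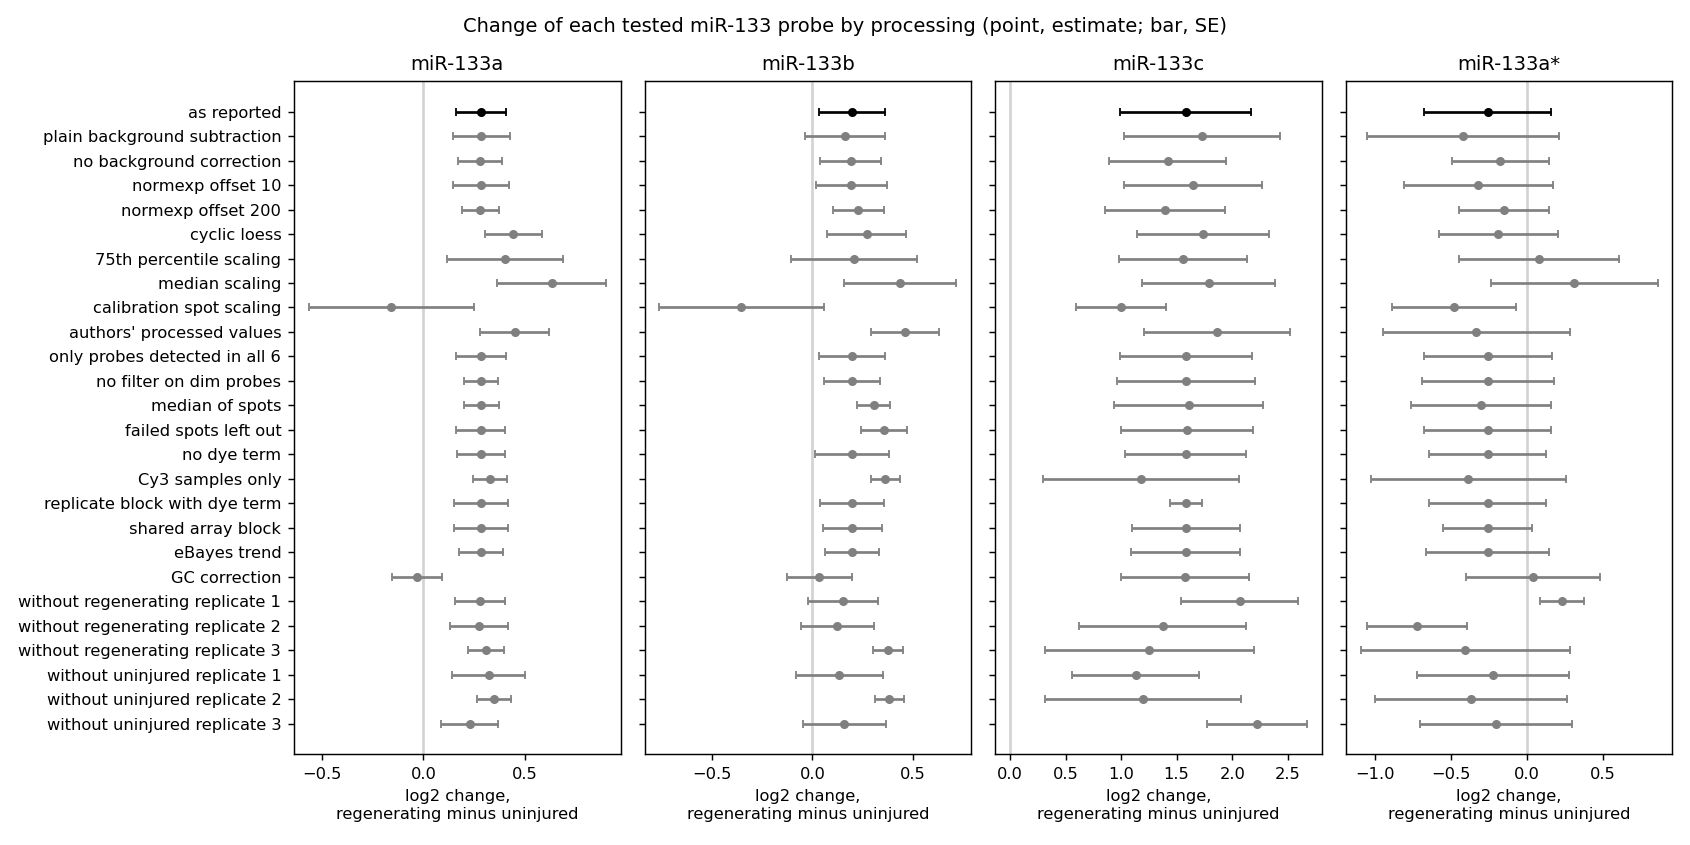
Log2 change, regenerating minus uninjured, of the 4 tested probes under the reported processing (black, top) and under each alternative (gray); bars are SE, and each panel has its own axis. miR-133a and miR-133b stay above 0 except with calibration spot scaling and, for miR-133a, GC correction; miR-133c stays above 0 throughout, and miR-133a* crosses 0.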

How the data were processed

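Per the labels' protocols, small RNA below 300 nucleotides from hearts was given a poly(A) tail and a tag and stained with Cy3 or Cy5 by a service company. Per the file headers, the deposited spot files give a linear mean intensity for each of 3968 spots and its spread within the spot, a signal column that entered no test. No source used here names the scanner or the software. The authors' value table holds processed intensities, made by a background and scaling method that the labels do not state. Its log2 values correlated with the unnormalized values of the same sample at r of 0.950 to 0.988, and its column medians ran from 68.9 to 91.9.

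Local background was the median of the 16 nearest of 1060 empty spots. Intensities were corrected in limma 3.58.1 (R 4.3.3; normexp, offset 50), converted to log2, averaged over 12 spots and quantile-normalized over the 218 miRNA probes. Detection asked for a mean over 3 SDs of the empty spots after subtraction. The 138 probes detected in at least 3 of 6 samples were tested with lmFit and eBayes with a dye term, with Benjamini-Hochberg adjustment over all 138 and a threshold of 0.05. The pipeline was also run on simulated data in 20 runs, whose outcome is not given here. Within-array differences used exact permutation tests. The number of arrays limits the precision, and where the replicates do not come from separate fish p-values measure only the spread between samples. Named probes were the 5 members, miR-1, miR-206, miR-208 and miR-499 where a probe of that name was found, and the 3 likest probes of each tested member. The members and lists were chosen with earlier results of these data known. Same-numbered samples did not consistently deviate together (r of 0.14, -0.45 and 0.37 for numbers 1, 2 and 3), so numbers were not taken as pairs. The highest r, 0.50, was that of regenerating replicate 1 and uninjured replicate 2, which may share an array.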

Additional observations from a re-analysis of the deposited data

How the results depend on the processing

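The alternatives changed the background correction, offset, normalization, source of values, filter, spot summary, dye, blocks, eBayes trend, GC content and samples; leaving out failed spots was chosen after seeing the data, as were all alternatives for the muscle probes and within-array pairs, and the cause of each difference below was not tested. miR-133a turned to -0.16 with scaling to calibration spots and to -0.032 with GC correction, and miR-133b to -0.35 with scaling to calibration spots. miR-133a* turned to 0.079 with 75th percentile scaling, 0.31 with median scaling and 0.042 with GC correction, and ran from -0.72 to 0.23 with 1 sample left out. The median change of all tested probes was -0.43, 0.13 and 0.36 with scaling to calibration spots, the 75th percentile and the median. Relative to it, in each of these scalings, miR-133a stood at 0.27, miR-133b at 0.077 and miR-133a* at -0.052. miR-1 stood at -0.099 and miR-499 at -0.26 in the same terms. Each of these scalings shifts all probes of an array by the same amount. The relative values are therefore equal by construction and are not separate support. The arm difference turned to -0.074 with GC correction. Among the values beside the family, miR-1 turned to 0.032, 0.26 and 0.56 and miR-499 to 0.10 and 0.38 with 75th percentile scaling (miR-1), median scaling and GC correction, miR-133a minus miR-1 to -0.59 with GC correction, and miR-133c minus miR-206 ran from -1.66 to 0.28 with 1 sample left out, the highest without regenerating replicate 1. The change of miR-133a minus miR-133b (0.087) turned to -0.0090 with the authors' values, -0.018 with the median of spots, -0.074 without failed spots, -0.035 in Cy3 samples, -0.067 with GC correction and ran from -0.053 (without regenerating replicate 3) to 0.17 with 1 sample left out. The count of all probes past the threshold, 5, became 3 with plain background subtraction, 23 with scaling to calibration spots, 0 with Cy3 samples only, 1 with the replicate block, 9 with the shared array block, 3 with an eBayes trend and 3 with GC correction, and ran from 0 to 29 with 1 sample left out. With scaling to calibration spots the tested miR-133 and muscle probes all had the same SE, 0.41, so p-values there did not use their own spread. That scaling also assumes equal amounts of the calibration sequences in every sample, and these amounts are not given. The replicate block changed no call of a miR-133 probe, and miR-133c had a limma adjusted p of 0.0522 with that block.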
